A study of Mus musculus with 7 samples.

Results

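MicroRNAs bound to Ago2 in mouse plasma were followed after status epilepticus (SE), with the library of 2 weeks set against the acute libraries of 4 h, 8 h and 24 h. These are 4 of the 7 libraries of the series. All 4 came from mice of strain c57 (adult male C57BL/6JOlaHsd mice in the study's methods) given kainic acid (KA) into the amygdala while awake, followed by midazolam or lorazepam. The 3 control libraries came from mice given PBS into the amygdala and bled at 4 h, 8 h and 24 h. They are given as background only, and a control library of 2 weeks was not analysed here. Each library was made from a pool of 10 mice, from EDTA plasma of submandibular blood that had passed a limit on haemolysis. There was 1 library per time-point, so no difference has a replicate check, and the 3 acute time-points are not replicates of each other. Of 640 miRNAs counted in the series, 175 reached at least 50 CPM (counts scaled to the library total) in at least 1 of the 4 SE libraries and are described. The filter used the plain CPM of each library.

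Ago2 is the protein that holds a mature miRNA and guides it to messenger RNAs, which are matched mainly through the seed near the 5′ end of the miRNA. In plasma, Ago2 complexes protect miRNAs from nucleases, and they can come from blood cells, endothelium, muscle, liver, brain and other tissues. In this model the first hours after SE hold the acute injury, and spontaneous seizures are established by the later time-point.

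The SE libraries, ordered by time, held 5405357, 3166964, 3718313 and 2541062 counts. The erythroid miR-486b-5p took 67.5%, 62.55%, 76.1% and 63.25% of them in that order, with 95% Wilson intervals no wider than 63.19 to 63.31%. That left 1755376, 1186070, 889228 and 933886 counts for all other miRNAs. Scaling was by trimmed mean of M-values (TMM). Its factors were 0.788, 1.15, 0.754 and 1.215, and every level given is CPM on TMM-adjusted library sizes. Low counts gathered in each library around a value of its own, at 37.6, 51.9, 45.2 and 33.1 counts. No source states what this value is. If it is the number of reads per captured molecule, a level of 50 plain CPM corresponds to 7.19, 3.05, 4.11 and 3.84 molecules, and estimated molecules are given on that assumption. Since reads were not counted by molecular identifiers, intervals and floors cover counting error only. The floor of 3 counts was 0.705, 0.824, 1.07 and 0.972 CPM.

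The library of 2 weeks lay nearest to that of 24 h among the SE libraries, and nearer still to the 24 h control. Over the 175 miRNAs the median absolute log2 difference from 2 weeks was 0.72 for SE 4 h, 0.73 for SE 8 h and 0.50 for SE 24 h. It was 0.83, 0.49 and 0.35 for the controls of 4 h, 8 h and 24 h. Spearman's rho with 2 weeks was 0.885, 0.853 and 0.928 for the acute SE libraries and 0.968 for the 24 h control. These are correlations across miRNAs of single libraries, which are not independent replicates.

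At 2 weeks, 16 of the 175 miRNAs (9.14%) were at least 1.5-fold above the highest acute level and 24 (13.7%) at least 1.5-fold below the lowest. A miRNA is called above, below or outside the range only by that margin unless a smaller fold is given. Levels rose at every step from 4 h through 8 h and 24 h to 2 weeks for 4 miRNAs (2.29%) and fell at every step for 17 (9.71%). Without a margin 77 lay inside the acute range at 2 weeks, and 90 were within 1.5-fold of the mean of the acute levels. The median log2 difference between 2 weeks and the mean acute log2 level was -0.05. The split depended on scaling. With library size only, 43 miRNAs were above and 13 below, and the median of all moved to 0.42, whereas DESeq2 size factors gave 17 above and 24 below. Leaving miR-486b-5p out of the library size gave 21 above and 21 below. All 16 miRNAs above the range and 13 of the 24 below it kept that call with library size only. For the 16 this was fixed in advance, because the TMM factor of 2 weeks, 1.215, was the largest of the SE libraries. Leaving the factors out raises 2 weeks against every acute library. Calls above can then not be lost, and calls below can not be gained.

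In edgeR's quasi-likelihood test of 2 weeks against the 3 acute libraries, 2 of 175 miRNAs (1.14%) were lower, miR-133b-3p and miR-434-3p (adjusted p = 0.00622 for each), and 0 (0%) were higher. At an unadjusted p under 0.05 the test had 21 lower and 2 higher. DESeq2's Wald test had 16 lower and 0 higher, all 16 among the 24 below the acute range, and edgeR's exact test with the BCV set at 0.1 had 56 lower and 31 higher. The spread in the quasi-likelihood test is that between acute time-points, with a BCV of 0.574, and the lone 2-week library was assumed to vary like them. These p values hold only under that assumption, which 1 library cannot check, so no conclusion is drawn from them. Both lower miRNAs were at 50 CPM in acute libraries alone, so neither was among the 111 at 50 CPM in all 4 libraries, of which 0 were lower. Without the filter, over 563 miRNAs with any count, both were among 12 lower. The count of lower miRNAs was 0 without SE 8 h, 5 without SE 4 h and 24 without SE 24 h, and 0 with library size only.

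Of the 17 miRNAs whose levels fell at every step, miR-133b-3p and miR-434-3p are described first. This order is not support for their fall, since both were at 50 CPM in acute libraries alone. miR-133b-3p, a miRNA of skeletal and cardiac muscle, was at 128, 123, 86.7 and 0.648 CPM from 4 h to 2 weeks. Its counts were 546, 447, 243 and 2, or 14.5, 8.62, 5.38 and 0.0604 estimated molecules. By exact 95% Poisson intervals of estimated molecules, 2 weeks was not apart from all acute libraries. The level at 24 h was 134 times that at 2 weeks, with an exact 95% counting interval of 36.6 to 1111. The SD of its acute log2 levels was 0.31. Its control levels were 56.8, 16.7 and 16.7 CPM at 4 h, 8 h and 24 h, each above the level at 2 weeks.

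miR-434-3p, a miRNA of the imprinted Dlk1-Dio3 locus that is abundant in neurons, was at 345.5, 285, 225 and 27.9 CPM from 4 h to 2 weeks. Its log2 difference was -3.33, against an SD of 0.31 among the acute levels. Its lowest acute level was 8.07-fold above that of 2 weeks. Controls were at 401, 103 and 0.253 CPM at 4 h, 8 h and 24 h, so the level also went down over the control time-points. Without SE 8 h neither of these miRNAs passed the test (adjusted p = 0.754 for each in edgeR's quasi-likelihood test), though their log2 differences were then -6.76 and -3.32.

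The other falling miRNAs named by rule spanned a wide range of levels. miR-107-3p was at 13180, 12700, 7693 and 3532 CPM, and its lowest acute level was 2.18-fold above that of 2 weeks. miR-182-5p, a miRNA of the sensory miR-183 cluster, was at 2243, 1976, 1426 and 665 CPM. miR-199b-3p was at 1048, 664, 287 and 169 CPM. For all 3 the largest acute level was at 4 h and the 2-week level lay below the whole acute range. miR-152-3p followed the same order with 448, 269, 139 and 55.1 CPM, an 8.14-fold difference between 4 h and 2 weeks. miR-381-3p, also of the Dlk1-Dio3 locus, was at 185, 87.3, 18.2 and 11.7 CPM, but the last value rests on 36 counts, or 1.09 estimated molecules. The remaining ones were miR-378c, at 572, 475, 213 and 181 CPM, and miR-100-5p, at 73.3, 73.0, 62.1 and 30.5 CPM.

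Stepwise order was sensitive to scaling. With library size only, 4 miRNAs fell at every step and 13 rose, and 2 of those 4 were among the 17, miR-152-3p and miR-199b-3p. With DESeq2 size factors 12 of the 17 still fell at every step. When each step had to pass a minimum fold, 4 fell and 1 rose. The controls bear on the same order, since 10 of the 17 also went down from 4 h through 8 h to 24 h in the controls and 1 went up, where 45 of all 175 went down and 50 up. Time after SE and the falling order over control time-points cannot be told apart at 2 weeks, for which no control was analysed.

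**Figure D1:**
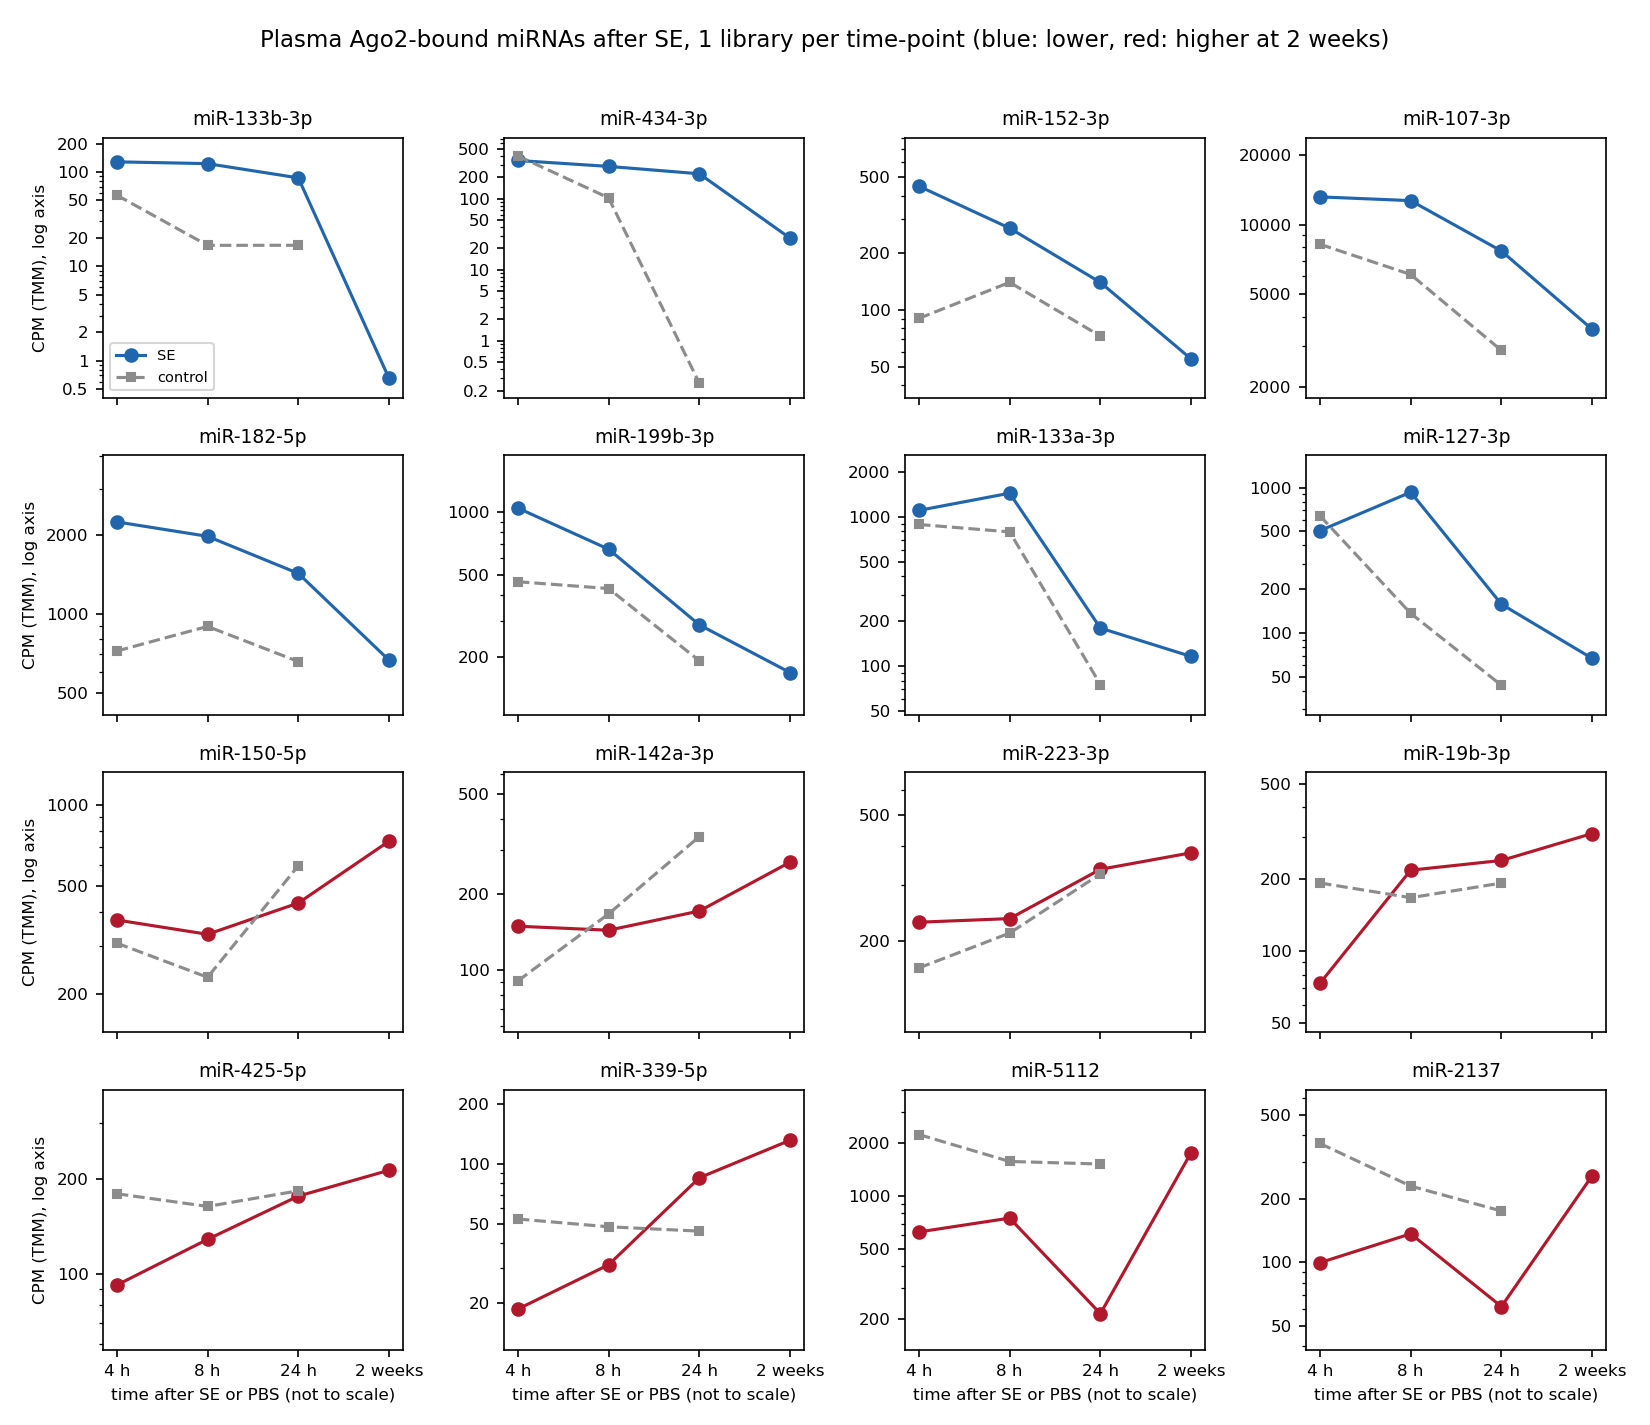
Levels of 16 miRNAs in each library, as CPM on TMM-adjusted library sizes on log axes, with SE in colour and controls in grey, 1 library per point and time-points evenly spaced. Blue panels are lower at 2 weeks than in every acute SE library (miR-133b-3p at 0.648 CPM) and red panels are higher (miR-5112 at 1775 CPM), while the controls of miR-107-3p, miR-133a-3p and miR-127-3p also go down from 4 h to 24 h.

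Several of the lower miRNAs have close relatives that share their seed, some of which followed a similar course in part and some a different one. Mature sequences were matched for 153 of the 175 miRNAs in RefSeq (build GRCm38.p6) and are written 5′ to 3′ with the seed, bases 2 to 8, in capitals. They are shown for 3 seed groups in which 1 member fell at every step or lay below the acute range, together with the 2 miRNAs past the test.
miR-133b-3p: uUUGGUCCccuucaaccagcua
miR-434-3p: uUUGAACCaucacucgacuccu
miR-107-3p: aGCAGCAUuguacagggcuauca
miR-103-3p: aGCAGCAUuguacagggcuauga
miR-152-3p: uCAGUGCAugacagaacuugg
miR-148a-3p: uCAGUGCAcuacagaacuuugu
miR-148b-3p: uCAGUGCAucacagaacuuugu
miR-92b-3p: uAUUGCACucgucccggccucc
miR-92a-3p: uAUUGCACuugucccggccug
miR-25-3p: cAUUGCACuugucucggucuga

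miR-107-3p and miR-103-3p differ at 1 of 23 bases. They lie in introns of pantothenate kinase genes, miR-107-3p at chr19:34820700-34820722 in Pank1 and the copies of miR-103-3p in Pank3 and Pank2. miR-103-3p was at 219, 195, 245 and 261 CPM from 4 h to 2 weeks, so the relative that was far less abundant did not share the fall. The log2 differences were -1.62 for miR-107-3p and 0.26 for miR-103-3p. The authors' alignment allowed up to 2 mismatches, so how reads were divided between such near-identical miRNAs is uncertain.

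miR-152-3p lies in an intron of Copz2 at chr11:96850439-96850459. It shares its seed with miR-148a-3p, at 2641, 2099, 1086 and 1287 CPM, and with miR-148b-3p, at 140, 101, 119 and 127 CPM. Of these 3, only miR-152-3p was at least 1.5-fold outside the acute range at 2 weeks, with TMM and with library size only. Without SE 24 h miR-148a-3p was below it as well, having gone down from 4 h to 24 h like miR-152-3p. miR-152-3p differs from miR-148b-3p at 2 and from miR-148a-3p at 3 of 21 bases. In the group of miR-25-3p, miR-92b-3p was at 870, 1110, 562 and 226 CPM and lay 2.49-fold below its lowest acute level. miR-92a-3p, with 2 mismatches over 21 bases, was at 10214, 8312, 10325 and 12358 CPM, and miR-25-3p at 6479, 4561, 8074 and 4288 CPM. Log2 differences within this seed group ran from -1.85 to 0.37. Controls of miR-92b-3p were at 990.5, 586 and 260 CPM at 4 h, 8 h and 24 h, and that of 24 h was close to the SE level at 2 weeks.

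The Dlk1-Dio3 locus on chromosome 12, an imprinted cluster whose miRNAs are expressed from the maternal allele and are prominent in brain, supplied 8 of the 24 miRNAs below the acute range. Of 12 members at 50 CPM, 8 were below the range and 0 above, against 13.7% and 9.14% of all 175. Their median log2 difference was -2.58, against -0.05 over all 175. The filter shaped both values, because 11 of the 12 were at 50 CPM in acute libraries alone and could hardly lie above them. Only miR-127-3p was at 50 CPM in all 4 libraries, and it was below the range. The median was -2.12 with library size only, where 4 of 12 were below, and -3.40 without SE 24 h, where 11 were. Summed over the 32 members counted, the level was 1904, 2552, 826 and 246.5 CPM from 4 h to 2 weeks. Members with any count numbered 23, 22, 16 and 12 of the 32, and 11, 17 and 11 in the controls, so 2 weeks was no emptier than the controls of 4 h and 24 h. The most abundant at 2 weeks was miR-127-3p at 67.1 CPM. Controls also went down, with sums of 2173, 718 and 217 CPM at 4 h, 8 h and 24 h, so the 2-week sum was near that of the 24 h control.

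Within the locus, miR-127-3p (chr12:109592888-109592909, plus strand) was at 505, 929, 158 and 67.1 CPM. miR-409-3p, in an intron of the non-coding Mirg gene, was at 33.6, 70.0, 43.9 and 0 CPM, at least 34.6-fold lower at 2 weeks than in the lowest acute library. miR-410-3p, in an exon of Mirg at chr12:109743764-109743784, was at 119, 173, 48.5 and 12.3 CPM. For all 3 the highest level was at 8 h and the lowest at 2 weeks. miR-541-5p had the same peak, with 50.3, 243, 47.8 and 6.15 CPM, and miR-136-3p was at 131, 163, 45.6 and 19.8 CPM. The seeds of the locus members shown here differ from each other, so they are grouped by position and not by target.
miR-127-3p: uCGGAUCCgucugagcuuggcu
miR-409-3p: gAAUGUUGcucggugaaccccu
miR-410-3p: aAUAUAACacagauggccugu
miR-541-5p: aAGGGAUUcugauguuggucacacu
miR-136-3p: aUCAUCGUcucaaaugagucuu

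Of the 24 miRNAs below the range, 7 had 3 counts or fewer at 2 weeks. miR-9-5p, a miRNA of neurons and neural progenitors, was at 31.9, 78.0, 39.6 and 0 CPM, at least 32.9-fold lower at 2 weeks than in the lowest acute library. miR-204-5p, encoded in an intron of Trpm3, was at 43.0, 114, 13.6 and 0 CPM. miR-132-3p, which is induced by neuronal activity, was at 46.0, 46.4, 13.6 and 0 CPM. Both were at least 13.9-fold lower at 2 weeks than at 24 h, their lowest acute level, but that level rests on 38 counts, or 0.841 estimated molecules, in each. The control libraries were at 70.0, 25.7 and 0.253 CPM for miR-9-5p, at 111, 33.4 and 0 CPM for miR-204-5p and at 0 in all 3 for miR-132-3p. miR-3068-3p peaked late instead, with 8.46, 15.9, 73.5 and 0 CPM. miR-672-5p, chosen after its values were seen, was at 20.0, 65.1, 28.5 and 0 CPM, and at 0 in all 3 controls. Of the 24, 13 had their highest level at 8 h, 9 at 4 h and 2 at 24 h.

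Filtering shaped these counts, because a miRNA that reached 50 CPM only in the acute libraries could hardly lie above their range. Of the 24 below, 16 were at 50 CPM only in acute libraries. Of the 16 above, 10 were at 50 CPM only at 2 weeks. Among the 111 miRNAs at 50 CPM in all 4 libraries, 8 were below and 3 above. An alternative added after seeing the data also required that exact 95% Poisson intervals of estimated molecules at 2 weeks meet none of the acute intervals. It kept 4 of the 24, miR-434-3p, miR-107-3p, miR-182-5p and miR-92b-3p, and 1 of the 16, miR-5112.

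**Figure D2:**
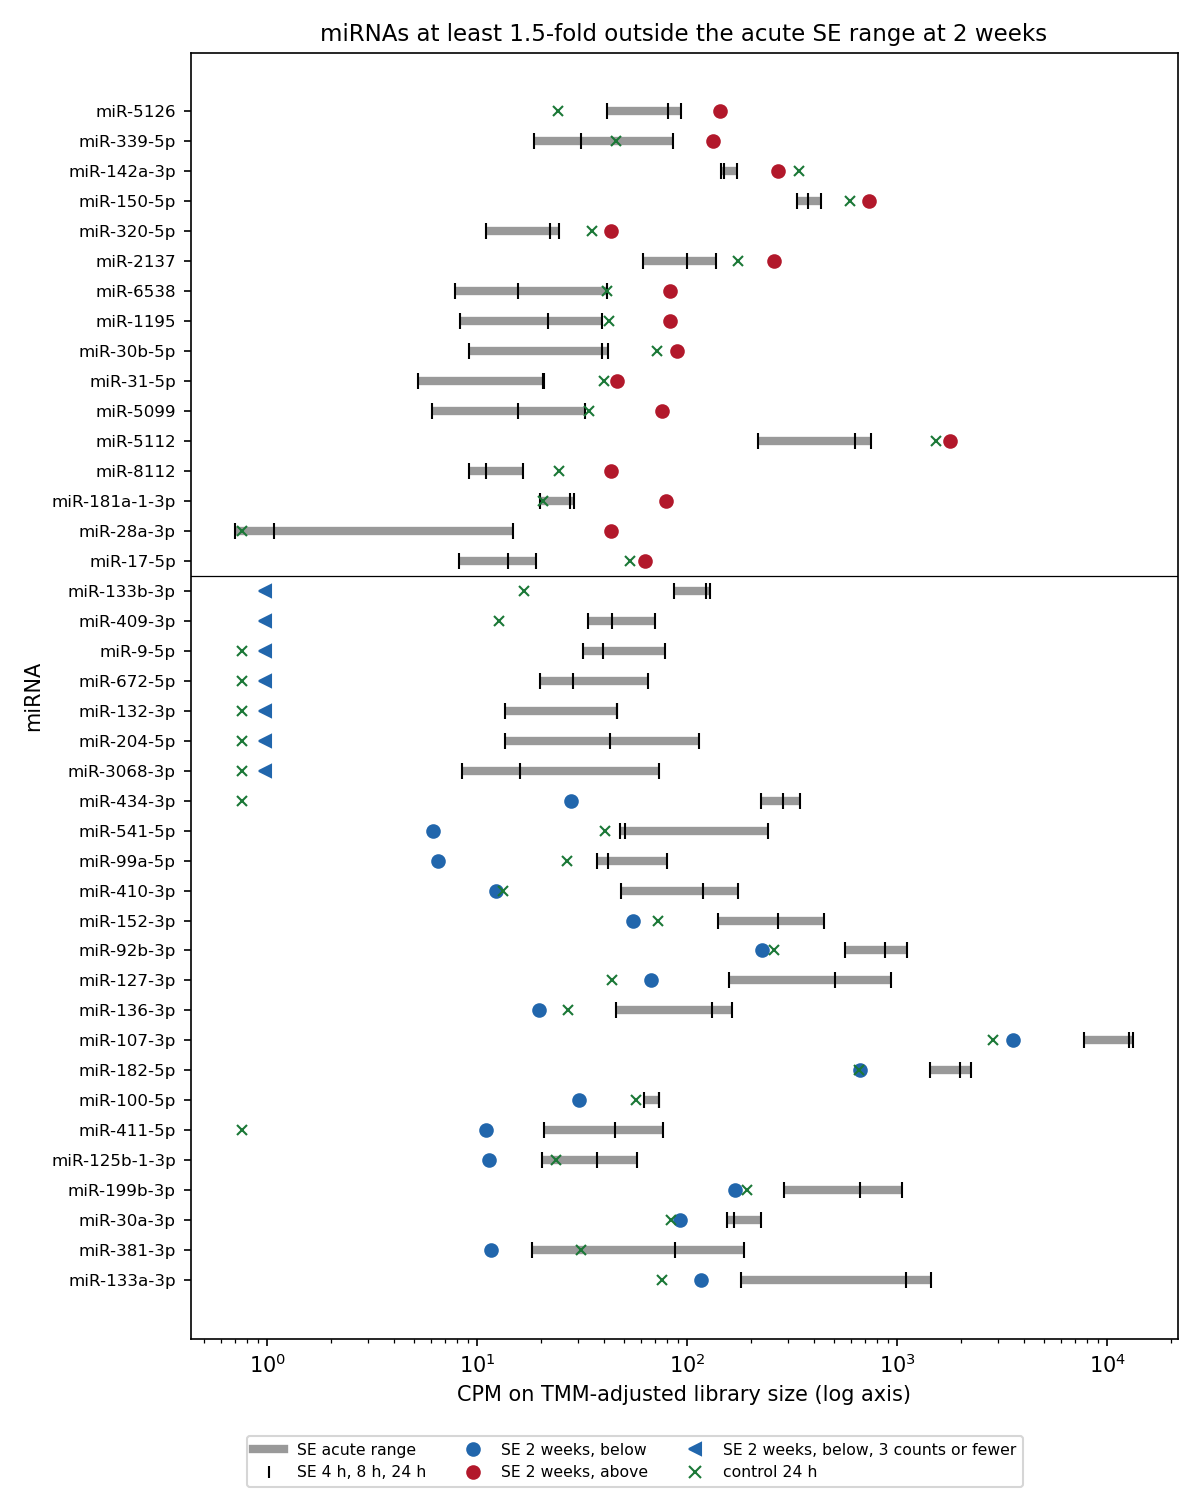
Level at 2 weeks (points) against the range of the acute SE libraries (bars with ticks), as CPM on TMM-adjusted library sizes on a log axis, for the 16 miRNAs above and the 24 below that range by at least 1.5-fold. Crosses are the 24 h control, and values of 3 counts or fewer are drawn at 3 counts of their library, which places 7 miRNAs at 0.972 CPM at 2 weeks.

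Among the 4 muscle and heart miRNAs counted, the levels in the SE libraries came almost wholly from miR-133 arms. Of 8 muscle and heart miRNAs listed, 4 were counted and 3 reached 50 CPM, of which 2 were below the acute range (13.7% of all 175 were) and 0 above (9.14%). Only miR-133a-3p was at 50 CPM in all 4 libraries. The other 4 were not analysed here. The sum of the 4 was 1299, 1635, 267 and 120 CPM from 4 h to 2 weeks, against 1051, 833 and 117 CPM in the controls of 4 h, 8 h and 24 h. miR-133a-3p, the most abundant, was at 1104, 1439, 180 and 116 CPM, with controls at 888, 793 and 75.5 CPM. Most of its decrease lay between 8 h and 24 h in both treatments, and the 2-week level was 1.55-fold below that of 24 h. The counted miRNA outside the miR-133 family, miR-208b-3p, was at 15.3, 0, 0 and 2.92 CPM. Its controls were at 0, 14.4 and 24.6 CPM at 4 h, 8 h and 24 h. Without SE 24 h all 3 members were below the range, and with library size only 1 was.

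Neuronal markers did not move together. Of 15 counted, 5 reached 50 CPM, with 2 below the acute range, 0 above and a median log2 difference of -1.14, against 13.7%, 9.14% and -0.05 over all 175. At 50 CPM in all 4 libraries 1 remained, miR-128-3p, inside the margin and at 0.47. The median of the 5 was -1.72 without SE 4 h, with 3 below, -0.50 without SE 8 h, with 2 below and 1 above, and -0.68 with library size only, with 2 below and 1 above. Members with any count numbered 7, 13, 8 and 4 of 15 from 4 h to 2 weeks and 5, 5 and 6 in the controls, against 399, 332, 314 and 340 of all 640 in the SE libraries. Among the 11 at 0 counts at 2 weeks was miR-124-3p, which was at 0, 0, 17.5 and 0 CPM from 4 h to 2 weeks. miR-128-3p, the most abundant, was at 1332, 1181, 1768 and 1953 CPM and alone kept the summed level of the list at 2033 CPM at 2 weeks, against 1470 at 4 h. miR-138-5p was at 16.7, 90.3, 33.9 and 16.8 CPM and miR-139-5p at 19.0, 52.7, 12.1 and 51.8 CPM. In bulk plasma, less release from a tissue and fewer complexes per releasing cell cannot be told apart.

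By the study's assignments of detected miRNAs to tissues and brain cells from published datasets, neuron-enriched miRNAs had 12 of 32 below the range and 1 above, against 13.7% and 9.14% of all 175. Their median log2 difference was -0.41, and it was 0.05 with library size only, where 7 were below and 8 above. At 50 CPM in all 4 libraries it was 0.18, with 3 of 16 below and 0 above, so the direction of the median depended on scaling and filter. Without SE 24 h it was -0.93, with 15 below. Brain-enriched miRNAs had 8 of 38 below and 1 above, with a median of -0.26. Scaled by library size only, 9 were above and 4 below, with a median of 0.21, and without SE 24 h 17 were below, with a median of -0.75. At 50 CPM in all 4 libraries 4 of 24 were below, with a median of 0.04. Astrocyte-enriched miRNAs had 2 of 19 below and 1 above, oligodendrocyte-enriched miRNAs 1 of 9 below and 0 above, and microglia-enriched miRNAs 0 of 14 below and 2 above. Heart-enriched miRNAs had 2 of 7 below, kidney-enriched 1 of 3 and digestive 1 of 6, with 0 above in each. Blood-enriched miRNAs had 1 of 5 above and 0 below, ubiquitous ones 1 of 19 above and 1 below, and liver-enriched and spleen-enriched miRNAs 0 of 2 and 0 of 4 outside the range. At 50 CPM in all 4 libraries astrocyte-enriched miRNAs had 0 of 14 outside the range, kidney-enriched 0 of 1 and heart-enriched 1 of 4 below. The oligodendrocyte, microglia, digestive, blood, ubiquitous, liver and spleen groups kept their numbers above and below. The small counts over the 175 also moved with library size only or without an acute library. The number below then ran from 1 to 5 for astrocyte-enriched, 0 to 2 for oligodendrocyte-enriched, 0 to 2 for microglia-enriched, 1 to 4 for heart-enriched, 1 to 2 for kidney-enriched and digestive, 0 to 1 for blood-enriched, and 0 to 2 for ubiquitous and spleen-enriched miRNAs. The number above ran from 2 to 5 for microglia-enriched, 1 to 4 for ubiquitous, 1 to 3 for astrocyte-enriched, 0 to 2 for oligodendrocyte-enriched, 1 to 2 for blood-enriched and 0 to 1 for liver-enriched and spleen-enriched miRNAs. Of the 12 neuron-enriched miRNAs below the range, 6 are of the Dlk1-Dio3 locus, so these are not separate observations.

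Only 4 miRNAs rose at every step. miR-339-5p was at 18.6, 31.0, 85.2 and 132 CPM and was the only rising miRNA also above the acute range by 1.5-fold. miR-19b-3p, of the miR-17-92 cluster, was at 73.5, 218, 239 and 310 CPM, and most of its rise lay between 4 h and 8 h. miR-425-5p was at 92.3, 129, 177 and 213 CPM. miR-223-3p, a miRNA of neutrophils and other myeloid cells, was at 229, 235, 337 and 381 CPM. With no margin, all 4 were over the highest of the 3 controls at 2 weeks, as were 51 of all 175. The 24 h control of miR-223-3p was at 326 CPM and had likewise come up from 164 CPM at 4 h. None of the 4 passed edgeR's quasi-likelihood test (adjusted p between 0.726 and 0.770), and only miR-339-5p still rose at every step with library size only.
miR-339-5p: uCCCUGUCcuccaggagcucacg
miR-19b-3p: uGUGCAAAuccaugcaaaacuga
miR-425-5p: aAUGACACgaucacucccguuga
miR-223-3p: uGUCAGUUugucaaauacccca

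A minority of leukocyte miRNAs were above the acute range at 2 weeks. Of 6 leukocyte miRNAs at 50 CPM, 2 were above the acute range, 0 below and 1 rose at every step, against 9.14%, 13.7% and 2.29% of all 175. Their median log2 difference was 0.66, against -0.05, and no member passed edgeR's quasi-likelihood test (lowest adjusted p = 0.378, miR-150-5p). With library size only 4 of the 6 were above. miR-150-5p, a miRNA of mature lymphocytes, was at 375, 332, 433 and 735 CPM, with controls at 308, 230 and 595.5 CPM. miR-142a-3p, found across blood cell lineages, was at 150, 144, 172 and 269 CPM, with controls at 90.7, 167 and 340 CPM. In both, the 3 acute libraries lay close together, 2 weeks lay above them, and the 24 h control was also higher than any acute SE library. miR-146a-5p, linked to inflammatory signalling, was at 1305, 1088, 559 and 755 CPM and stayed inside the acute range. The list's sum was 9242, 7062, 10119 and 11274 CPM, with miR-142a-5p the most abundant and no member at 0 at 2 weeks. The part of blood cells in these levels was not tested.

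Among the lists, that of miRNAs with late registry numbers had the most members above the range. Of 24 miRNAs numbered 1000 or above, 7 were above the acute range and 1 below, against 9.14% and 13.7% of all 175, with a median log2 difference of 0.81. The 7 were miR-5112, miR-2137, miR-5126, miR-6538, miR-1195, miR-8112 and miR-5099. With library size only 13 were above, and without SE 4 h 11. At 50 CPM in all 4 libraries 1 of 10 was above, with a median of 0.38, so the filter bears on this count as well. miR-5112 was at 628, 753, 216 and 1775 CPM and miR-2137 at 99.6, 137, 61.7 and 258 CPM. Both were lowest at 24 h and highest at 2 weeks. The controls were higher than the acute SE libraries, at 2246, 1579 and 1527 CPM for miR-5112 and at 366, 230 and 175 CPM for miR-2137, so that SE at 2 weeks lay within the control range of both. miR-5126 was at 41.6, 93.1, 81.0 and 143 CPM, and miR-6538 at 41.3, 15.7, 7.85 and 82.6 CPM. The summed level of all 244 such miRNAs was 6078, 6817, 5201 and 7916 CPM in SE and 12018, 9736 and 8563 CPM in the controls.
miR-2137: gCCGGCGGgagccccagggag
miR-5126: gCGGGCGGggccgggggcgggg
miR-6538: cGCGGGCUccggggcggcg

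miR-2137 lies in an intron of Zfp185 at chrX:72992113-72992133 and miR-6538 in an intron of Rnf144a.

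Other miRNAs above the range were low in the acute libraries. miR-17-5p was at 19.0, 14.0, 8.20 and 62.5 CPM, and its lead over the highest acute level was 3.29-fold. miR-181a-1-3p was at 20.0, 28.8, 27.5 and 79.0 CPM, miR-30b-5p at 9.16, 41.7, 39.2 and 88.8 CPM and miR-31-5p at 20.4, 5.22, 20.7 and 46.3 CPM. These 2-week levels correspond to between 4.32 and 8.28 estimated molecules. Each of these miRNAs was at 50 plain CPM only at 2 weeks. Their low acute levels therefore follow from the filter and are no support for a rise. miR-28a-3p and miR-320-5p, at 133 counts each at 2 weeks, were the miRNAs just inside the 50 CPM filter, with 52.3 plain CPM. Just outside were miR-322-5p at 49.6 and miR-486b-3p at 49.3 plain CPM.

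**Figure D3:**
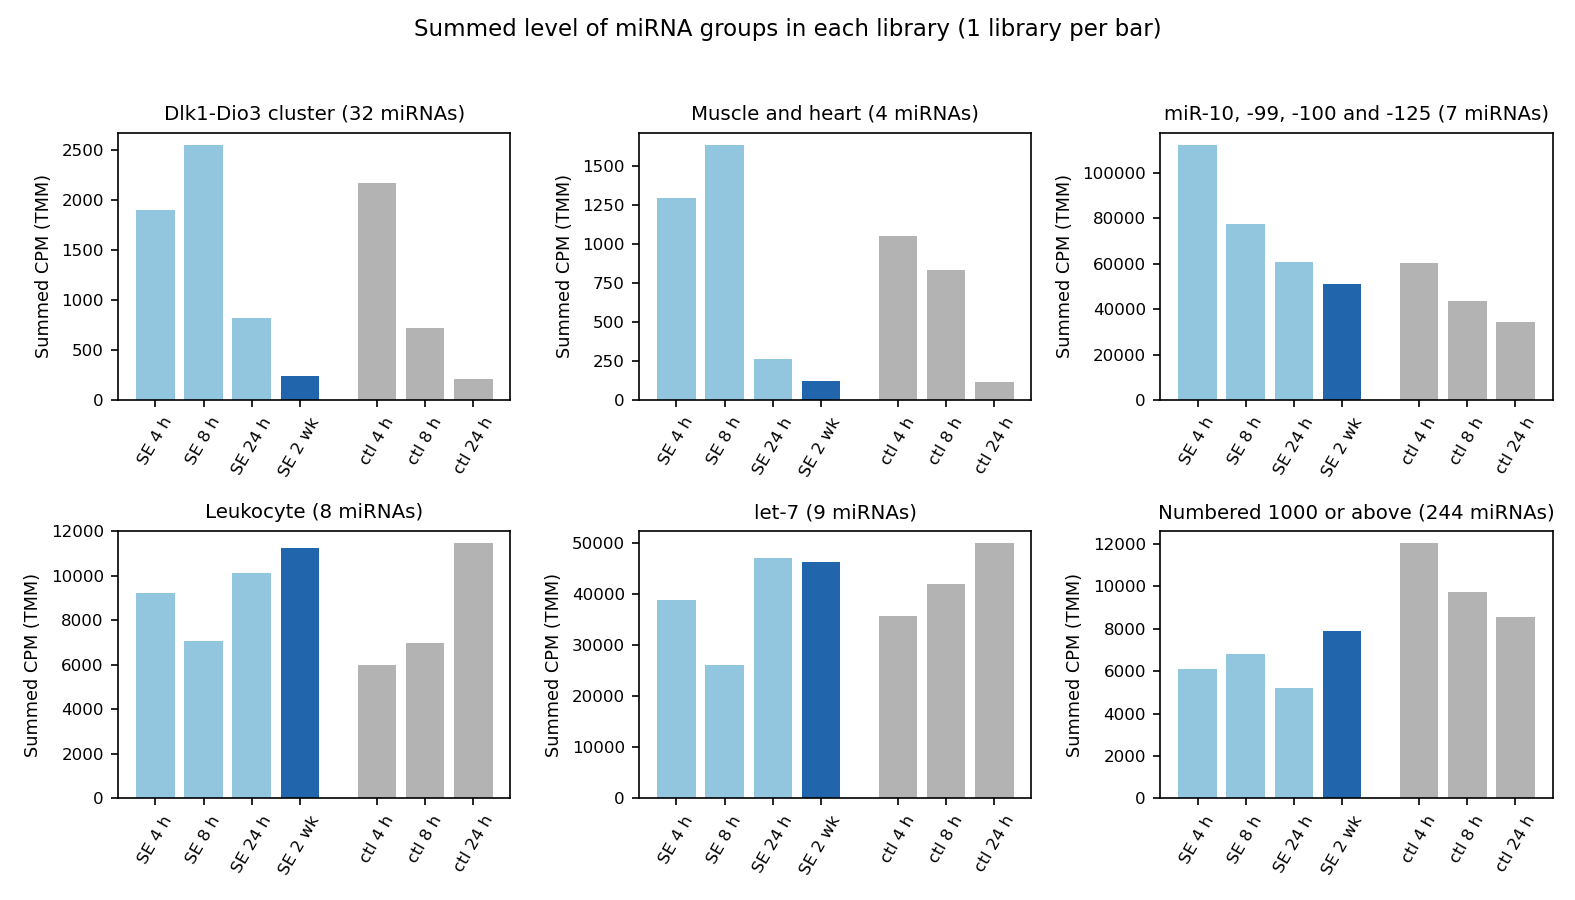
Summed CPM on TMM-adjusted library sizes of 6 groups of miRNAs in each library, with acute SE in light blue, SE at 2 weeks in dark blue and controls in grey, 1 library per bar. The Dlk1-Dio3 sum was lowest in SE at 2 weeks (246.5 CPM) among SE libraries and in the 24 h control (217 CPM) among controls, and the leukocyte sum was highest at those same time-points.

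Several miRNA families had no member outside the acute range by 1.5-fold, where 9.14% of all 175 were above and 13.7% below. In a short list 0 is near these shares, so it is not a trait of the family. The 9 miRNAs of the let-7 list, miR-98-5p among them, were between -0.25 and 0.48 in log2 difference, with 0 above or below the range. By less than 1.5-fold 3 were over the highest acute level, and 6 were above the range with library size only. let-7f-5p was at 22151, 14424, 26283 and 25528 CPM. The miR-181, miR-23/24/27, miR-29 and miR-101 lists had 0 of 4, 0 of 4, 0 of 2 and 0 of 2 outside the range by 1.5-fold. Scaled by library size only, 2 of the miR-181 list were above. Without SE 24 h both of the miR-29 list and 1 each of the miR-23/24/27 and miR-101 lists were below, and 1 each of the let-7 and miR-181 lists above. By that margin endothelial and platelet miRNAs had 0 of 4 outside it, liver and gut miRNAs 0 of 3 and erythroid miRNAs 0 of 3, though without SE 8 h 2 erythroid and 1 of the endothelial and platelet miRNAs were below. By less than the margin, 2 of the miR-181 list lay over the highest acute level, and under the lowest lay 2 erythroid miRNAs and 1 each of the miR-29, miR-101, endothelial and platelet, and liver and gut lists. No member of the Sfmbt2 cluster reached 50 CPM. The miR-30 list had 1 of 7 above (miR-30b-5p) and 1 below (miR-30a-3p, at 154, 166, 224 and 92.3 CPM). The miR-17-92 and miR-106b-25 clusters had 1 of 8 above (miR-17-5p). These counts are near the 9.14% above and 13.7% below of all 175. Both miRNAs above were at 50 CPM only at 2 weeks, and at 50 CPM in all 4 libraries both lists had 0 above. With library size only these lists had 2 and 3 above and 0 below.

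The miR-10, miR-99, miR-100 and miR-125 list had 2 of 7 below the range and 0 above, against 13.7% and 9.14% of all 175. Its median log2 difference was -0.71, which was -0.24 with library size only, and at 50 CPM in all 4 libraries 0 of 4 were below. Without SE 24 h 4 of 7 were below, with a median of -0.93, and without SE 4 h the median was -0.35. Its sum was 112204, 77730, 60734 and 51255 CPM from 4 h to 2 weeks and 60163, 43838 and 34364 CPM in the controls, going down over both series. The sum is mostly miR-10b-5p, a miRNA of the Hoxd cluster, at 90114, 62887, 49660 and 39534 CPM. The 2 members below the range were miR-100-5p and miR-99a-5p, which differ at 1 of 22 bases. miR-99a-5p was at 79.6, 37.1, 42.1 and 6.48 CPM.

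The most even of the miRNAs above 1000 CPM in all 4 libraries was miR-30d-5p, at 2913, 2573, 2446 and 2651 CPM, followed by miR-27a-3p, miR-423-5p, let-7c-5p and miR-320-3p. Of all 175, 71 varied by less than 2-fold over the 4 libraries. miR-320-3p was at 1322, 1335, 1105 and 1047 CPM in SE and at 2968, 2307 and 3506 CPM in the controls, so an even course within SE did not mean a level shared with the controls. Among the most abundant miRNAs, miR-143-3p of vascular smooth muscle was at 41308, 19631, 12929 and 16409 CPM, and miR-192-5p of gut and liver at 20720, 22428, 20670 and 15230 CPM. miR-143-3p was highest at 4 h and miR-192-5p lowest at 2 weeks, the latter 1.36-fold below its lowest acute level.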

How the data were processed

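Plasma Ago2-bound small RNA was immunoprecipitated with antibody C34C6, prepared with the TruSeq small RNA kit with reagent volumes halved and sequenced on an Illumina HiSeq. The authors trimmed adapters and aligned reads to miRBase by BLASTn in the Chimera software, allowing up to 2 mismatches, and deposited raw counts per mature miRNA. The version of Chimera is not given in the sources used here. Total counts in the SE libraries were 2541062 to 5405357. Members and lists were chosen with earlier results of these data known.

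Counts were scaled with TMM over all 7 libraries in edgeR 4.0.16 (R 4.3.3). The quasi-likelihood test compared 2 weeks with the 3 acute libraries over 175 miRNAs, with Benjamini-Hochberg adjustment. DESeq2 1.42.0 supplied the alternative size factors and Wald test. Levels of 3 counts or fewer were set at 3 counts for log2 differences and folds, so a fold against 0 counts is a lower bound. The ratio given for miR-133b-3p instead uses its 2 counts at 2 weeks, with an exact interval. A log2 difference is the 2-week log2 level less the mean of the acute ones, and its SD is that of the 3 acute log2 levels. To find where low counts gather, counts between 6 and 300 were logged (natural log) and smoothed by a kernel of bandwidth 0.15, and the peak was taken.

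Lists were families, genomic clusters and tissue markers, with the study's tissue and cell assignments and all miRNAs numbered 1000 or above. They were described by counts and medians. Named miRNAs were up to 8 rising, 8 falling, 8 furthest above and 8 furthest below the acute range with more than 3 counts in all 4 libraries, up to 5 with 3 counts or fewer at 2 weeks, the 5 most abundant, the 5 steadiest, 2 on each side of the filter, those past the test, and list members. Positions are RefSeq's on GRCm38.p6, with host genes from GENCODE. Alternatives were other scalings, filters, folds and tests, and leaving out each acute library. A few withheld miRNAs are not reported here. Python 3.11.15 with scipy 1.17.1 and matplotlib 3.10.9 was used for the rest.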

Additional observations from a re-analysis of the deposited data

How the results depend on the processing

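Main counts were 16 above the acute range, 24 below, 4 rising, 17 falling, and 0 higher and 2 lower in edgeR's quasi-likelihood test. With library size only they were 43, 13, 13, 4, 0 and 0. With library size without miR-486b-5p, 21 were above and 21 below, 15 rose and 6 fell, and the median of all miRNAs was 0.16. At 500 CPM or more, with 65 miRNAs tested, 2 were above, 6 below, 0 rising, 10 falling and 0 lower in the test. At 50 CPM in all 4 libraries, with 111 tested, 3 were above, 8 below and 0 lower in the test. With any count, and 563 tested, 81 were above and 39 below, and the test had 1 higher and 12 lower. At least 2-fold outside the range were 9 above and 18 below, and with no fold threshold 46 above and 52 below. A minimum fold for each step left 1 rising and 4 falling. The exact test with BCV 0.1 had 31 higher and 56 lower, and DESeq2's Wald test 16 lower. Intervals of estimated molecules, chosen after seeing the data, left 1 above and 4 below. Leaving out an acute library gave 20 to 26 above, 28 to 47 below, 23 to 34 rising and 38 to 44 falling, since fewer libraries make these conditions easier to meet, and 0 to 1 higher and 0 to 24 lower in the test. The highest counts above, below and in the test came without SE 24 h, and 0 lower came without SE 8 h. TMM over the 4 SE libraries gave the main counts again.

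Of 382 log2 differences of named miRNAs under these alternatives, 7 changed sign. miR-143-3p was at 0.0485 with library size only and 0.0426 without SE 4 h, and at -0.795 without SE 24 h. miR-27a-3p was at 0.33 with library size only and 0.0769 with library size without miR-486b-5p, and miR-320-3p at 0.21 with library size only. miR-30d-5p was at -0.01 without SE 8 h, -0.0463 without SE 24 h and 0.0798 without SE 4 h. The cause was not tested.

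No paired analysis was possible because each time-point has 1 library and the labels carry no replicate numbers. If the value around which low counts gather is the number of reads per molecule, which no source states, 50 plain CPM is 3.05 to 7.19 molecules.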

Other observations

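miR-26a-5p and miR-26b-5p share a seed. At 2 weeks miR-26a-5p was over its highest acute level by less than 1.5-fold, and miR-26b-5p was just under its own. miR-26a-5p was at 3122, 2244, 3434 and 4571 CPM from 4 h to 2 weeks, with controls at 1886, 2540 and 4715 CPM at 4 h, 8 h and 24 h. miR-26b-5p was at 243, 179, 393 and 382 CPM, with controls at 263, 201 and 495 CPM. These values were chosen after they were seen, and in both treatments the higher levels were at the later time-points.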
